A study of Homo sapiens with 8 samples.

Results

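The library of the 200 mM salt wash (G200) was set against the libraries of the washes just below and just above it in salt, G100 (100 mM) and G300 (300 mM). All 3 came from 293T cells, a human embryonic kidney-derived line in which the large T antigen of SV40 is present. Cells had been crosslinked, permeabilised and exposed to a transposase, and the mixture was bound to Q Sepharose, a strong anion exchanger. The flow-through (FT) and successive washes with 20, 100, 200, 300, 500, 700 and 1000 mM NaCl were each made into 1 ATAC-seq library, 8 in all. No group had a drug, a genotype or a time point, and nothing but the wash differs between them in the labels. The design text asks how accessibility and transcription factor motifs differ between fractions; accessibility is described here and motifs were not analysed here. Peaks of the G100, G200 and G300 lists that shared 1 bp or more were merged, on chromosomes 1 to 22 and X, which gave 26437 regions out of the 36845 that the 8 lists give together. Of these, 4090 were called in G200 only, 2003 in G100 and G300 but not in G200, and 8315 in all 3.

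In ATAC-seq the transposase cuts and tags DNA that is not wrapped in nucleosomes or covered by tightly bound protein, so active promoters and enhancers collect reads. An anion exchanger holds negatively charged material such as DNA and its complexes, and salt releases it in order of charge, the least strongly held first. The charge of a fragment depends on its length and on the protein bound to it. Repeats that exist in many copies, such as centromeric satellites and ribosomal DNA, also pile up reads in assays of this kind, because an assembly holds fewer copies than a cell does.

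With 1 library per wash, none of the differences could be set against the spread between replicates. Intervals are 95% exact intervals for counting error only, and they compare these libraries rather than salt concentrations. The G200 list also differs from the others in form: its peaks are named G50_200, and its numbers carry at most 6 significant digits, against 9 in each of the other 7 lists. Whether it holds the 200 mM wash alone, or was made in another run, was not settled, and a difference of salt cannot be told apart from a difference in how this library was made. The label of the cell line could not be checked against marker genes, because gene positions in the build of the files were not used here.

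The 3 lists differed in length and depth. G100 held 13146 peaks on the chromosomes used, G200 held 15896 and G300 held 19590. The authors' median −log10 q per peak was 5.37 in G100, 5.44 in G200 and 5.78 in G300. The genome background recovered from the peak statistics, in reads expected over one fragment length, was 0.320 in G100, 0.239 in G200 and 0.497 in G300. G200 thus had the lowest background of the 3 and more peaks than G100.

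Most regions that both neighbours shared were also called in G200. Of the 10318 regions called in G100 and G300, 8315 were called in G200, which is 80.6% (79.8 to 81.3). For comparison, 92.2% (91.6 to 92.7) of the 9018 regions of G100 and G200 were called in G300, the longest list, and 75.2% (74.4 to 76.0) of the 11060 regions of G200 and G300 were called in G100, the shortest. With the 13146 peaks of highest −log10 q from each list, the 3 shares were 81.6% for G200, 86.8% for G300 and 82.7% for G100. The share in G200 was then the lowest of the 3, and the intervals of G200 (80.8 to 82.4) and G100 (81.9 to 83.5) overlapped. Regions of G200 and G100 without G300 were the smallest class, at 703. Regions of G200 and G300 without G100 numbered 2745, those of G100 only 2089 and those of G300 only 6492.

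**Figure D1:**
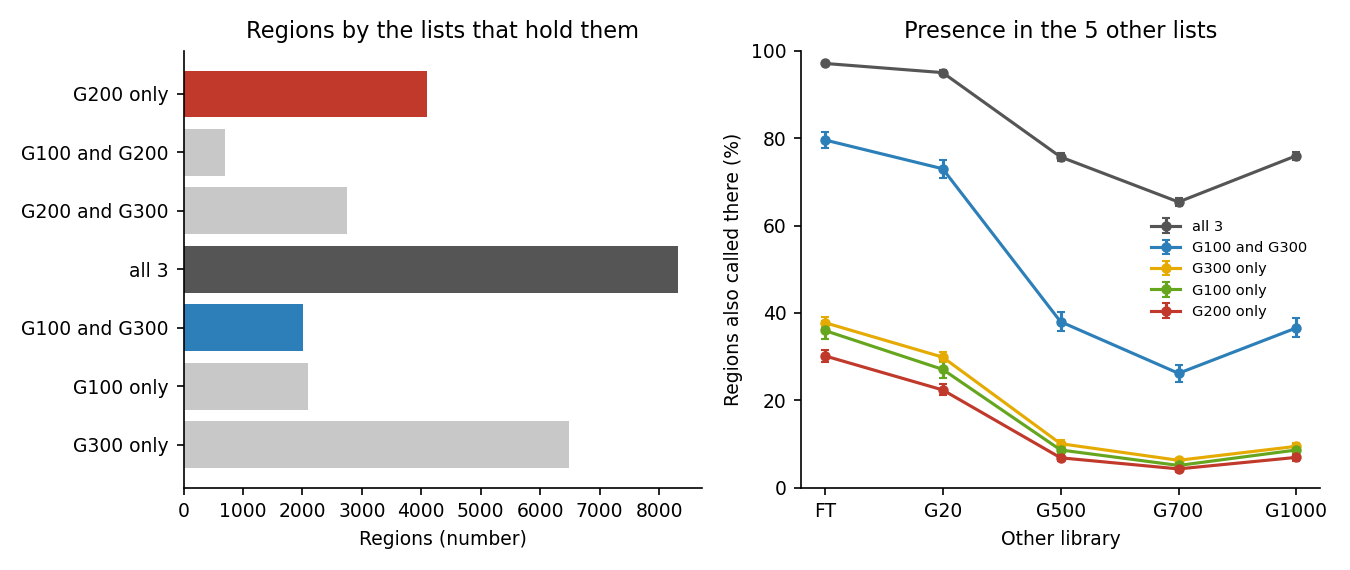
Left, the number of merged regions in each combination of the G100, G200 and G300 lists. Right, the percent of the regions of 5 of these classes that also held a peak of FT, G20, G500, G700 or G1000, with 95% exact binomial intervals; G200 only (red) lies lowest in each of the 5 lists, from 4.33% in G700 to 30.2% in FT.

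Regions of G200 only were weak, as were the regions of each neighbour alone. Their median −log10 q was 3.20, with quartiles of 2.33 and 4.46, and the median summit held 6 reads and spanned a peak of 374 bp. In G100 only the median −log10 q was 2.98 and in G300 only it was 3.39. In regions of all 3, the median −log10 q was 7.07 in G100, 8.37 in G200 and 10.5 in G300, and the median peak was 536, 581 and 642 bp wide in that order. These strengths set which regions were called, so they describe the classes and test nothing. A −log10 q of 3 or more was reached by 53.6% of the G200 only peaks, against 94.6% of the G200 peaks in regions of all 3.

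The regions that G200 lacked were mostly the weaker ones of both neighbours. When the 10318 regions of G100 and G300 were ranked by their mean rank in these 2 lists, G200 called 99.2% (98.5 to 99.7) of the strongest decile, 85.5% (83.2 to 87.6) of decile 5 and 49.8% (46.7 to 52.9) of the weakest. In the strongest decile 8 regions were missing from G200. Of those, 4 were less than 1 Mb from the longest stretch of their chromosome that holds no peak of any list, and 6 were called in each of the 5 other libraries. Of the 1032 regions of that decile, 4.26% lay that close to such a stretch and 98.1% were called in all 5.

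**Figure D2:**
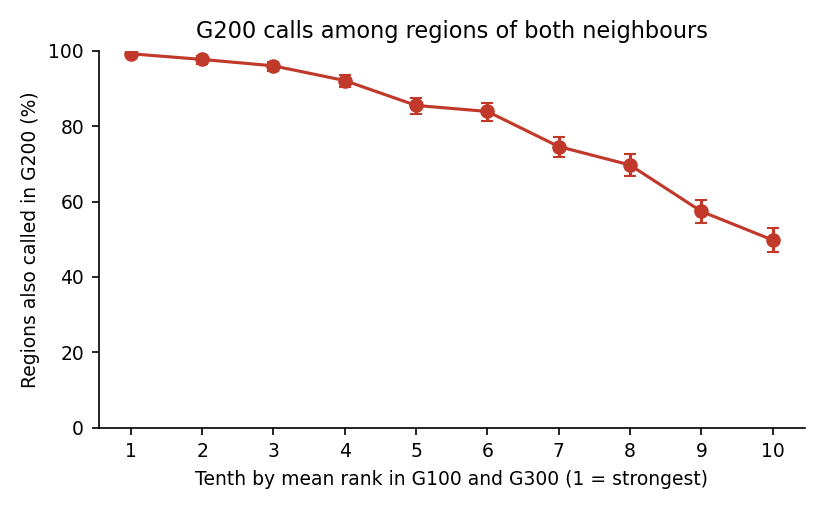
The percent of the 10318 regions called in both G100 and G300 that were also called in G200 (y axis), by decile of their mean rank in both neighbours (x axis, 1 the strongest), with 95% exact binomial intervals. The share falls from 99.2% to 49.8%.

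The 5 libraries that the choice of classes did not use were then read in the same regions. Of all 26437 regions, 73.3% were called in 1 or more of FT, G20, G500, G700 and G1000. The share was 42.8% for G200 only, 51.1% for G100 only and 52.3% for G300 only, so the regions of G200 alone came back less often than those of either neighbour alone. None of the 5 lists held 57.2% (55.7 to 58.7) of the G200 only regions, 48.9% (46.8 to 51.1) of the G100 only regions and 47.7% (46.5 to 49.0) of the G300 only regions. At a −log10 q of 3 or more in all lists, the shares were 48.6% for G200 only, 44.1% for G100 only and 42.0% for G300 only. With G100, G200 and G300 cut to equal length they were 38.4%, 39.7% and 26.9%, so G200 only was then no longer above G100 only. All 5 other lists called 14 regions of G200 only (0.342%), against 0.239% of G100 only, 0.508% of G300 only and 17.4% of all regions.

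Presence elsewhere went with strength within G200 only. The 2339 regions that none of the 5 lists held had a median −log10 q of 2.59 and a median of 5 reads. The 271 regions that 3 or more of them held had a median −log10 q of 4.46 and a median of 9 reads. A −log10 q of 10 or more was reached by 7 of the former and 16 of the latter.

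Regions of G100 and G300 without G200 were called in 1 or more of the 5 other lists in 92.5% of cases. FT held 79.6% (77.7 to 81.3) of them, G20 73.0% (71.0 to 74.9), G500 38.0% (35.9 to 40.2), G700 26.2% (24.2 to 28.1), and G1000 held 36.6% (34.5 to 38.8). Of all regions, FT held 63.3%, G20 57.1%, G500 34.9%, G700 27.9% and G1000 34.5%, so the class stood above the whole in FT and G20 and near it in the high-salt libraries. For regions of G200 and G300 without G100, the corresponding shares were 77.2%, 68.8%, 32.0%, 21.5% and 30.4%. For regions of G100 and G200 without G300 they were 71.0%, 60.6%, 24.3%, 17.6% and 23.2%. Missing from G200 was thus accompanied by the highest share in each of the 5 lists among the 3 classes of 2 lists, although the intervals of the first pair of classes overlapped in FT. The peaks of this class were also stronger. Their median −log10 q in G300 was 5.45, against 5.12 for G200 and G300 without G100. In G100 it was 4.22, against 3.84 for G100 and G200 without G300. The part of strength in these shares was not tested. Regions of all 3 were called in FT in 97.1% of cases, in G500 in 75.7% and in G700 in 65.4%.

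The strongest region of G200 only lay on chromosome 1 from 564701 to 565278, with 1084 reads at the G200 summit and a −log10 q of 637. Among the 5 other lists, G20 alone called it, with 164 reads. In hg19 the start of chromosome 1 carries a long nuclear copy of mitochondrial DNA at this place. The next was on chromosome 20 from 61592302 to 61593016, with 36 G200 reads and a −log10 q of 30.3, and none of the 5 other lists called it. Chromosome 14 from 32953783 to 32954329 was likewise called nowhere else, with 15 reads in G200.

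Others among the 10 strongest were open in several fractions. Chromosome 12 from 51818530 to 51818997 had 16 reads in G200, 15 in FT, 15 in G20, 9 in G500 and 6 each in G700 and G1000, and so was called in every library but G100 and G300. Chromosome 17 from 71010076 to 71010576 had 16 reads in G200, 12 in FT, 7 in G20, 7 in G700 and 10 in G1000. Chromosome 19 from 48423472 to 48423867 had 28 reads in G200 and 31 in FT and was called in no further list. The remaining 4 regions, on chromosomes 8, 9, 12 and 16, had 16 to 25 reads in G200 and were called in 1 to 3 of the 5 other lists.

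Sites beside centromeres, where satellite repeats lie, led the regions of both neighbours that G200 lacked. The strongest lay on chromosome 10 from 42395856 to 42396276, with 243 reads in G100, 203 in G300, 258 in FT and 185 in G20; G500 had 101 there, G700 had 132 and G1000 had 153. Chromosome 11 from 51588300 to 51589125 had 137 reads in G100, 209 in G300, 239 in FT and 164 in G20; G500 had 160, G700 had 104 and G1000 had 97. Both were called in all 7 libraries other than G200, and both lie beside the longest peak-free stretch, as do 2 further regions on chromosome 10. Of the 10 strongest regions of this class, 4 were thus beside such a stretch and 8 were called in all 5 other lists. All 5 lists called 17.4% of all regions and 98.1% of the strongest decile of both neighbours. The class as a whole was not rich in places beside the longest peak-free stretches: 1.55% of its regions lay there, against 1.42% of all regions. G200 called 80.1% of the 156 regions of both neighbours beside these stretches, against 80.6% of the ordinary ones. The longest stretch is not the centromere on every chromosome, so these shares do not cover all centromeric sites.

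Places far from such stretches were among them as well. Chromosome 6 from 162007774 to 162008388 had 26 reads in G100 and 34 in G300, with 28 in FT, 28 in G20, 12 in G500, 17 in G700 and 17 in G1000. Chromosome 1 contributed 4 of the 10: 58753874 to 58754710 (22 reads in G100 and 33 in G300), 81592584 to 81593200 (20 and 27), 224517583 to 224518246 (24 and 34), and the first bases of the chromosome, 9999 to 10517 (20 and 27), where telomere repeats begin. What an uncalled peak held in G200 cannot be read from a peak list.

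Reads were next compared in the regions called in all 3, where each library has a value. Of the 8315 regions, 8268 had a recovered number of summit reads in each library. Reads were scaled so that the libraries had equal totals over 8134 regions, leaving out chromosome ends and the surroundings of the longest peak-free stretches. The mean summit there held 15.6 reads in G100, 17.4 in G200 and 22.5 in G300. Relative to the genome background this was 48.7 times in G100, 72.6 times in G200 and 45.3 times in G300, so the G200 summits stood 1.49 times as far above their background as those of G100 and 1.60 times as far as those of G300.

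With this scaling, G200 was at least 2-fold above the sum of both neighbours in 124 regions (1.50%) and at least 2-fold below in 270 (3.27%). Scaled to the genome background instead, which multiplies every ratio of G200 to its neighbours by 1.56, the counts were 1646 and 17, so the balance of directions depends on the scaling. G100 was at least 2-fold above G300 in 115 regions (1.39%) and at least 2-fold below in 53 (0.641%). A sum of 2 libraries carries less counting error than 1 library, so pairs are the fairer comparison. Against G100 alone, G200 was at least 2-fold higher in 226 regions and lower in 384, and against G300 alone in 220 and 301. Each pair with G200 thus had more regions past 2-fold, in both directions, than the pair of its neighbours. The requirement of a peak in all 3 lists leaves out regions that fell too low in G200 to be called.

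**Figure D3:**
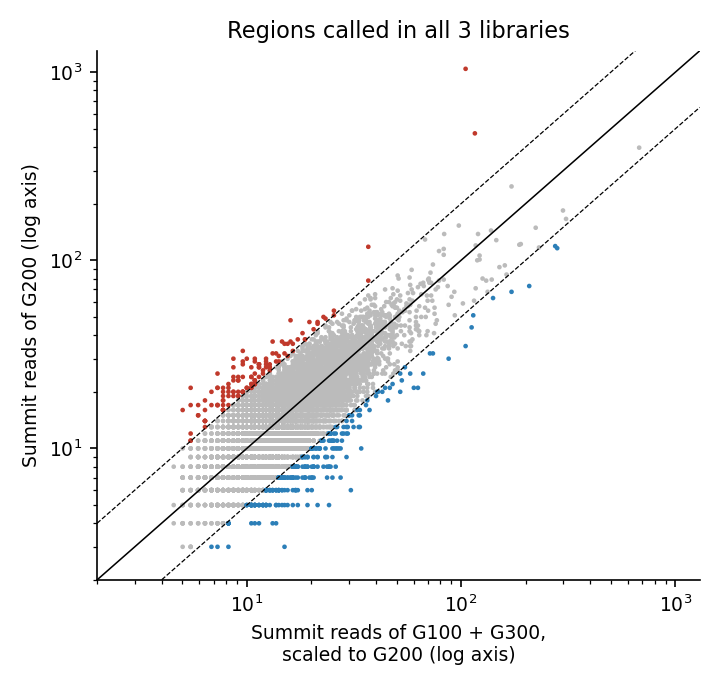
Summit reads of G200 (y axis) against the summed reads of G100 and G300 scaled to G200 (x axis), both on log axes, for the 8268 regions of all 3 with reads in each. The solid line marks equality and the dashed lines 2-fold; 124 regions (red) lie on or above the upper line and 270 (blue) on or below the lower line; scaled to the genome background the counts are 1646 and 17.

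Copies of mitochondrial and ribosomal DNA were among the highest ratios. On chromosome 1 from 566064 to 566550, in the same nuclear copy of mitochondrial DNA, the summit held 95 reads in G100, 1042 in G200 and 135 in G300. FT had 92 there, G20 148, G500 172, G700 99 and G1000 197, so G200 was above each of the other 7 libraries, and its scaled ratio to the neighbours was 9.94 (8.61 to 11.5). On chromosome 21 from 9826764 to 9827559, a place known for ribosomal DNA sequence, reads were 106 in G100, 473 in G200 and 148 in G300. FT had 308 there, G20 192, G500 120, G700 78 and G1000 76, and the ratio was 4.08 (3.50 to 4.78). On chromosome 1 from 91852795 to 91853103, which matches large-subunit ribosomal RNA, reads were 38, 118 and 43 in order of salt, and the ratio was 3.19 (2.39 to 4.29). A further ribosomal RNA-like region, chromosome 2 from 133012712 to 133013298, had 4, 21 and 8 reads (ratio 3.84, 1.80 to 8.56). In each of these 4 regions G100 and G300 differed by less than 1.5-fold after scaling.

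The other regions among the 10 highest had fewer reads and wider intervals. Chromosome 9 from 139886278 to 139887093 had 8 reads in G100, 30 in G200 and 11 in G300 (ratio 3.46, 1.89 to 6.51). Chromosome 10 from 15844349 to 15844866 had 8, 33 and 13 (3.45, 1.94 to 6.27), and chromosome 14 from 37374475 to 37375119 had 6, 25 and 10 (3.43, 1.76 to 6.87). Regions on chromosomes 1, 2 and 21 completed the 10, with ratios from 3.11 to 3.19.

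At the other end, 5 of the 10 lowest ratios were on chromosome 1, which held 11.4% of the regions of all 3. The lowest, 196577329 to 196578596, had 24 reads in G100, 6 in G200 and 43 in G300, with 35 in FT, 30 in G20, 23 each in G500 and G700, and 15 in G1000. G200 was below each of the other 7 libraries there, and the ratio was 0.196 (0.0696 to 0.450). At 59858920 to 59859636 the reads were 19, 5 and 34 (ratio 0.207, 0.0645 to 0.514), and at 239571358 to 239572135 they were 25, 7 and 35 (0.256, 0.0987 to 0.560). Elsewhere, chromosome 2 from 80234908 to 80235724 had 15, 3 and 18 (0.199, 0.0391 to 0.636), and chromosome 4 from 177116456 to 177117085 had 21, 5 and 26 (0.233, 0.0724 to 0.584). Of the 10 lowest, 8 were called in all 5 other lists, against 50.4% of all regions of all 3. That share rises with strength, and was 98.1% in the strongest decile of the regions of both neighbours.

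Beside the longest peak-free stretches, G200 had fewer reads than its neighbours in sum, relative to the ordinary regions. Such a stretch is not the centromere on every chromosome. On chromosome 8 it lies in or beside the first 10 Mb, and on chromosome X in or beside 140 to 150 Mb. Sites near a centromere can therefore count as ordinary. Over 123 regions up to 1 Mb away from the longest peak-free stretches the ratio was 0.636 (0.614 to 0.658), while G100 to G300 was 1.07 (1.03 to 1.10). This ratio pools reads, so regions with many reads weigh most. G200 was at least 2-fold lower in 14 of the 123 regions and at least 2-fold higher in 1. Of 2 windows on chromosome 16 that hold such regions, 40 to 50 Mb gave 0.496 and 30 to 40 Mb gave 1.15. A window pools all its regions, also those farther away, so these values cannot show whether the drop was general. On chromosome 7 from 61968674 to 61969772, one of the 5 regions of all 3 with the highest mean rank, G100 had 606 reads, G200 397 and G300 881 (ratio 0.586, 0.523 to 0.655). On chromosome 10 from 42529214 to 42529841, another of these 5, the reads were 266, 166 and 412 (0.537, 0.450 to 0.637). Chromosome 3 from 73159867 to 73160331, also one of the 5 but away from such a stretch, had 133, 247 and 245 reads (1.43, 1.22 to 1.69). The 2 with the highest mean rank, on chromosome 1 from 121484125 to 121485442 and on chromosome 19 from 27731858 to 27732774, also border such stretches; a read number was not recovered in each library there.

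The chromosomes differed in the ratio of G200 to its neighbours and hardly in the ratio between the neighbours. The ratio of G200 was 1.28 (1.24 to 1.32) on chromosome 17, 1.26 (1.23 to 1.29) on chromosome 19, 1.18 (1.12 to 1.24) on chromosome 20 and 1.18 (1.13 to 1.24) on chromosome 22. It was 0.885 (0.862 to 0.909) on chromosome 3, 0.876 (0.840 to 0.913) on chromosome 15 and 0.856 (0.830 to 0.883) on chromosome X. G100 to G300 stayed between 0.957 (chromosome X) and 1.07 (chromosome 10) on every chromosome. Chromosome 21 had the highest ratio of G200, 1.34, but 71 of its 74 regions, those after its longest peak-free stretch, gave 1.03 (0.960 to 1.11), and the ribosomal DNA-like region above is among the rest.

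**Figure D4:**
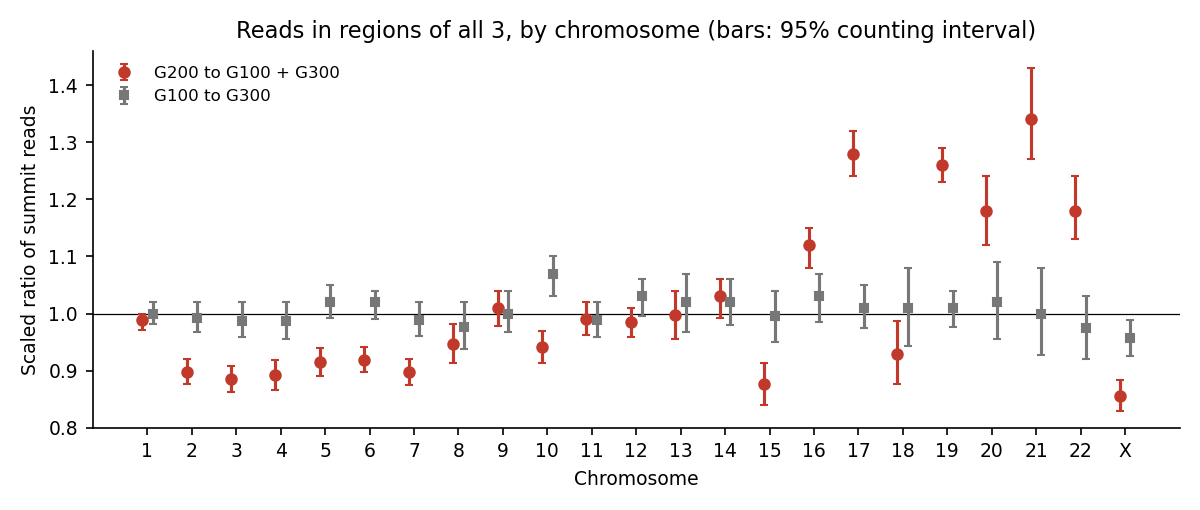
Scaled ratio of summit reads in regions of all 3 (y axis) on each chromosome (x axis), for G200 to the sum of G100 and G300 (red circles) and for G100 to G300 (grey squares), with 95% exact counting intervals. The red points run from 0.856 on X to 1.34 on 21, and the grey points from 0.957 to 1.07.

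The classes were spread over chromosomes in the same direction. Chromosomes 17, 19, 20 and 22, grouped after their values were seen, held 11.8% of all regions. They held 15.4% (14.3 to 16.6) of G200 only, 17.2% (14.5 to 20.2) of G100 and G200, and 15.6% (14.3 to 17.0) of G200 and G300. They held 6.49% (5.45 to 7.66) of G100 and G300 without G200, 9.19% (7.99 to 10.5) of G100 only and 7.89% (7.24 to 8.57) of G300 only. Every class with G200 thus lay above the share of all regions, and every class without it lay below. Read ratios and classes come from the same peaks, so they are not separate evidence. Of the 124 regions at least 2-fold higher in G200, 42 (33.9%) were on these 4 chromosomes, and of the 270 lower, 5 (1.85%), where 13.2% of the regions compared lie.

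The ratio of G200 had a wider range over windows within chromosomes than over whole chromosomes, where it ran from 0.856 to 1.34. A window holds fewer regions than a chromosome, so its counting error is larger and single regions weigh more. In 276 windows of 10 Mb with at least 10 regions of all 3, the ratio of G200 ran from 0.496 to 3.92, with quartiles of 0.844 and 1.06. G100 to G300 ran from 0.808 to 1.35 in the same windows, with quartiles of 0.962 and 1.03. The ratio of G200 was 0.8 or lower in 49 windows, and G100 to G300 in 0.

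The highest window was on chromosome 1. The lowest, 0.496 (0.417 to 0.588) over 10 regions, was on chromosome 16 from 40 to 50 Mb, beside the longest peak-free stretch. The neighbours differed most in that same window, with G100 to G300 at 1.35 (1.17 to 1.57). The first window of chromosome 1 had a ratio of 3.92 (3.61 to 4.26), and 1.87 (1.67 to 2.09) without the region from 566064 to 566550. The next window had 1.59 (1.47 to 1.72), and those that follow had 1.45 (1.34 to 1.58), 1.20 (1.11 to 1.29) and 1.06 (0.979 to 1.14). From 30 to 120 Mb the ratio was 0.988 (0.960 to 1.02), and from 140 to 160 Mb it was 1.01 (0.973 to 1.06). Within the former, the ratio was 0.766 (0.687 to 0.851) from 70 to 80 Mb. Beyond 160 Mb it was 0.718 (0.696 to 0.740), over 316 regions, and 1.12 when scaled to the genome background. The step fell between the 5 Mb that end at 160 Mb, at 0.968 (0.881 to 1.06), and the next 5 Mb, at 0.734 (0.674 to 0.800). These boundaries were chosen after the values were seen.

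The mitochondrial DNA copy weighs on the first of these values. Over the first 30 Mb the ratio was 2.09 (1.99 to 2.18), and without the region from 566064 to 566550, left out after the data were seen, it was 1.59 (1.51 to 1.67) over 102 regions. G100 to G300 was 1.01 in the first 30 Mb and 0.979 beyond 160 Mb. Of the 103 regions in the first 30 Mb, G200 was at least 2-fold higher in 25 (24.3%) and at least 2-fold lower in 0. Of the 316 beyond 160 Mb, it was higher in 0 and lower in 33 (10.4%).

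**Figure D5:**
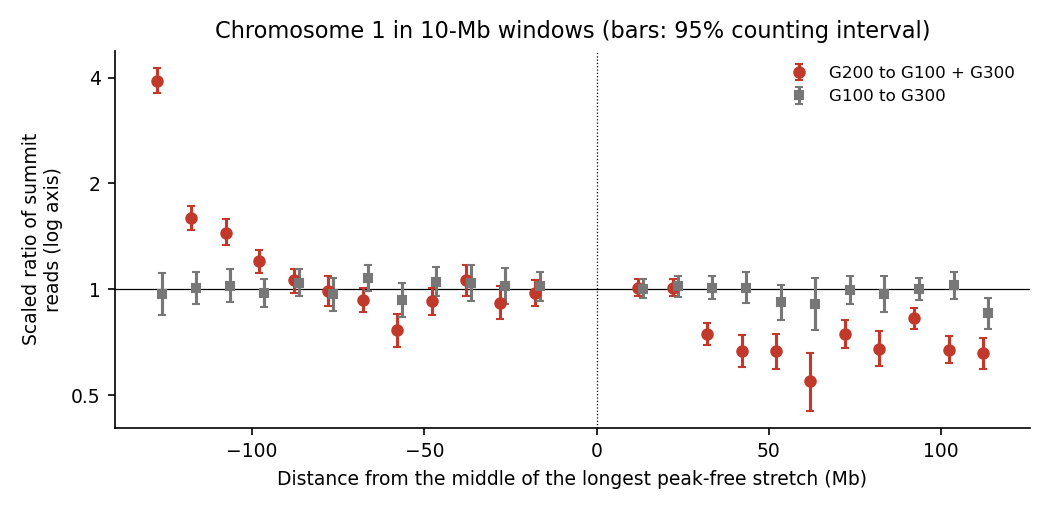
Scaled ratio of summit reads (y axis, log scale) in 10-Mb windows of chromosome 1, by distance of the window's middle from the middle of the longest peak-free stretch (x axis), with 95% exact counting intervals. G200 to its neighbours (red circles) starts at 3.92 and lies near 1 on both sides of the stretch, apart from 0.766 at 57.2 Mb before it. It drops to between 0.548 and 0.827 in the last 9 windows, while G100 to G300 (grey squares) stays near 1.

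The classes on chromosome 1 also differed between its stretches. Of 354 regions in the first 30 Mb, 114 (32.2%) were G200 only and 8 (2.26%) were in G100 and G300 without G200. Of 1027 regions beyond 160 Mb, the numbers were 97 (9.44%) and 136 (13.2%), where all 26437 regions gave 15.5% and 7.58%. Of the regions that both neighbours called, G200 called 92.8% in the first 30 Mb, 81.9% from 30 to 120 Mb, 90.9% from 140 to 160 Mb and 70.1% beyond 160 Mb. The middle stretches thus differed in this share although their read ratios were both close to 1.

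Libraries outside the 3 gave a reading that does not use the neighbours. In regions called in all 8 lists, G200 was set against the sum of G500, G700 and G1000, with the same G200 reads. Its ratio was 1.56 (1.46 to 1.67) in the first 30 Mb without the mitochondrial DNA copy and 0.723 (0.698 to 0.749) beyond 160 Mb. For FT the same ratios were 1.06 (0.984 to 1.13) and 1.01 (0.985 to 1.04), and for G20 they were 1.07 (0.997 to 1.15) and 0.984 (0.955 to 1.01). On chromosome 1, FT and G20 thus stayed close to the high-salt libraries in both stretches, and G200 did not. On chromosomes 17, 19, 20 and 22 FT was raised as well. Over 501 regions there the ratio to the high-salt libraries was 1.27 (1.24 to 1.30) for G200, 1.16 (1.13 to 1.18) for FT, 1.08 (1.06 to 1.10) for G20, 1.00 (0.977 to 1.03) for G100 and 0.997 (0.976 to 1.02) for G300. On chromosome 22 FT stood at 1.29 (1.22 to 1.36) and G200 at 1.24 (1.17 to 1.32), with overlapping intervals.

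Similar contrasts stood within other chromosomes, picked after their values were seen. On chromosome 17 the ratio of G200 was 0.811 (0.732 to 0.898) from 20 to 35 Mb and 1.51 (1.42 to 1.61) from 40 to 50 Mb. G200 only made up 13 of 129 merged regions in the former and 70 of 231 in the latter. The former holds regions beside the longest peak-free stretch, and the window from 30 to 40 Mb gave 1.14 (1.01 to 1.28). On chromosome 9 the ratio was 0.608 (0.527 to 0.700) in the first 10 Mb and 1.37 (1.27 to 1.48) beyond 130 Mb. There G200 only made up 9 of 78 and 61 of 193 merged regions. Of all 26437 regions, 15.5% were G200 only. In these 4 stretches G100 to G300 lay between 1.01 and 1.17. Chromosome 16 had a ratio of 1.20 (1.14 to 1.25) before its longest peak-free stretch and 1.01 (0.952 to 1.06) after it. On chromosome 19 both sides were high, at 1.29 (1.24 to 1.34) and 1.24 (1.20 to 1.28).

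Reads of G200 were also higher where open regions were dense. The number of regions of the 5 other lists within 500 kb on either side was counted for each region of all 3. In the quintile with the fewest, 0 to 9, the ratio of G200 was 0.880 (0.868 to 0.893), and in the quintile with the most, 24 to 66, it was 1.11 (1.10 to 1.13). In the 3 quintiles between them it was 0.973, 0.939 and 1.01, so the rise was not steady, and G100 to G300 was 0.995 to 1.01 in all 5. Across regions, Spearman's rho between this number and the ratio was 0.21 for G200 and 0.00 for G100 to G300 (n = 8268). Without chromosomes 17, 19, 20 and 22 it was 0.15 for G200 (n = 7179). Regions are not independent, and neighbouring ones share their stretch of chromosome, so this is a description. The part of gene density and base composition was not tested.

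The same count was taken for the classes, with all 26437 regions ranked by it, so that each quintile holds 20% of them. G200 only was spread evenly, with 20.2% in the densest quintile and 19.4% in the sparsest. The densest quintile held 15.7% (14.2 to 17.4) of G100 only and 13.9% (13.1 to 14.8) of G300 only. That quintile held 24.4% (22.8 to 26.1) of G200 and G300 without G100 and 14.0% (12.5 to 15.6) of G100 and G300 without G200. In regions of all 3 the share was 25.4% (24.4 to 26.3).

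Summit distances were similar in the 3 pairs of libraries. Peaks of a region were joined because they overlap, which limits how far apart their summits can lie. In regions of all 3, the median distance between summits was 88 bp for G100 and G200, 78 bp for G200 and G300 and 82 bp for G100 and G300. Summits lay within 100 bp of each other in 55.4%, 59.0% and 57.4% of regions, in that order, and within 250 bp in 88.4%, 89.8% and 89.7%. The G200 peak was wider than the G300 peak in 39.0% of regions, and the G100 peak was wider than the G200 peak in 40.8%.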

How the data were processed

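The members and lists were chosen with earlier results of these data known. The submitters' processing notes name the aligner Bowtie2 2.2.6, the peak caller MACS2 2.2.1, HOMER, and the builds hg19 and mm10. Sequence names are those of hg19, and coordinates count from 1. Not given in the sources used here are the peak-calling settings, read filters and the handling of multiply mapped reads. The authors deposited 1 peak list per library, with a score per peak, the fold of the summit over background (a ratio), the −log10 p and the −log10 q of each peak.

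Summit reads were recovered as the whole number that gives both the deposited fold (reads plus 1 over background plus 1) and the deposited −log10 p under a Poisson distribution. At least 99.98% of the peaks of a list had a match and at least 99.3% a single one. The procedure was tested on simulated data with values given to 5 decimals. In the G200 list only 45.3% of peaks have 5 decimals throughout, so the simulation did not match its rounding. Of the G200 peaks, 99.99% had a match and 99.6% a single one. The lowest background shared by many peaks was taken as the genome background. Reads may be fragments.

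Peaks sharing 1 bp or more were merged (Python 3.11.15, pandas 2.3.3, numpy 2.4.6, scipy 1.17.1). A share has an exact Clopper-Pearson interval, and a read ratio an exact interval given the sum of reads, both at 95%. Past 2-fold means against the scaled reads of both neighbours. No p-value was computed, since each wash has 1 library. Named regions were the 10 of highest −log10 q among G200 only, the 10 of highest mean rank among G100 and G300 without G200, the 10 highest and 10 lowest ratios among regions of all 3 with at least 20 reads, and the 5 of highest mean rank among all 3. Planned results on gene position, gene groups, sequence and marker genes were not run, as no genome of the build of the files was used here. What named places are known to hold is general knowledge of that build.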

Additional observations from a re-analysis of the deposited data

Results flagged for a closer look

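A signal stood out in sequence outside the comparisons. On the unplaced scaffold gl000220, which carries ribosomal DNA, 11 regions of all 3 had 5522 summit reads in G200 and 3802 in G100 and G300 together, a scaled ratio of 3.19 (3.06 to 3.32), where G100 to G300 was 1.13 (1.06 to 1.21). On the other unplaced sequences, 37 regions gave 0.739 (0.697 to 0.784), on the other side of 1.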

How the results depend on the processing

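Depth limits single regions most: a median G200 only summit held 6 reads, and read ratios of single regions have wide intervals. Of 75 values recomputed under alternatives, 55 stayed within 1.5 times (counts) or within their counting interval, 19 moved further and 1 turned direction. Scaled to the genome background, which was lowest in G200, the ratio beyond 160 Mb of chromosome 1 turned from below to above 1, at 1.12, while the first 30 Mb gave 3.24 and chromosomes 17, 19, 20 and 22 gave 1.94; G200 was then 2-fold higher in 1646 regions and lower in 17, so the direction of a ratio holds relative to the average region only. Scaled to the median region, the ratio was 0.742 beyond 160 Mb and 1.29 on those 4 chromosomes. With G300 alone as neighbour G200 was 2-fold higher in 220 regions and with G100 alone in 226; without the mitochondrial DNA copy the first 30 Mb gave 1.59. These 3 alternatives were chosen after seeing the data. At a −log10 q of 3 or more, G200 only held 2651 regions, of which 48.6% were in none of the other lists and 16.9% on the 4 chromosomes. With equal list lengths, 38.4% of G200 only, 3.61% of G100 and G300 and 0.230% of all 3 were in none of the other lists, G200 called 81.6% of the regions of both neighbours, G100 only came out above G200 only (39.7%), and the 4 chromosomes held 17.0% of G200 only. With summits within 250 bp, 50.7% of G200 only were in none of the other lists and G200 called 77.9%. The cause was not tested. Joining peaks by 100 bp or more, or adding all sequences, moved none of the 9 values recomputed. Alternatives for gene position and sequence features were not run. No paired analysis was possible because each wash has 1 library.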

Other observations

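On chromosome 6, 2 adjoining stretches differed; they were chosen after their values were seen. From 25 to 30 Mb, which holds the large histone gene cluster, the ratio of G200 to its neighbours was 0.957 (0.898 to 1.02) over 90 regions of all 3. From 30 to 35 Mb, which holds most of the major histocompatibility complex, it was 1.31 (1.21 to 1.41) over 56 regions, and G100 to G300 was 1.01 (0.919 to 1.11). Of the 184 merged regions in the first stretch, 19 were G200 only and 17 were in G100 and G300 without G200. Of the 126 in the second stretch, the numbers were 33 and 3. All 26437 regions gave 15.5% and 7.58%.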
